A study of Mus musculus with 30 samples.

Results

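Fl/Fl mouse embryonic stem (ES) cells at day 4 after withdrawal of leukaemia inhibitory factor (LIF) were compared with Fl/Fl ES cells at day 2, with 2 arrays per day, which makes 4 of the 30 arrays of the series. LIF is the cytokine that keeps mouse ES cells undifferentiated, and its removal was the only treatment named in the labels. Fl/Fl cells carry floxed copies of the gene that the labels call Jmj, now named Jarid2, whose product is a partner of Polycomb repressive complex PRC2, and the labels class them as wild type. Day 0, day 6 and day 8 of the same Fl/Fl cells, with 2 arrays each, set the step between day 2 and day 4 in its time course, and cells labelled as Jmj -/- mutants, called null here, were taken up for days 4 and 2, and for the levels of streak factors on day 6, with 5 arrays each. The labels name biological replicates but do not say whether these were separate cultures or clones, so the p-values measure only the spread between these arrays. Neither a Cre driver, nor the origin of the lines, nor the use of feeder cells is stated in the labels.

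The primitive streak is the furrow of the gastrulating mouse embryo through which epiblast cells pass to become mesoderm and definitive endoderm. Wnt3, Nodal and Bmp4 signals induce it, and T-box and homeobox factors such as Eomes and Mixl1 are switched on in the cells that enter it, while Snai1 helps them to loosen their epithelial contacts. ES cells that lose LIF leave the naive state of the early epiblast, pass through a formative or primed state, and can then turn on streak genes.

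RNA was measured as probe set intensity on Affymetrix arrays, a linear brightness for a small group of probes. On the 10 Fl/Fl arrays the mean intensity was 349.3 to 363.6 and the median 10 or 11, so a large share of the probe sets sat near the floor. The table holds no detection calls, and intensities of about 4 to 10 are called the floor here. The number of arrays limits the precision of every value below. Across genes, which are not independent replicates, the log2 values of the paired arrays correlated at 0.9966 on day 4 and 0.9957 on day 2. As a measure of RNA integrity, the signal of the 3' actin probe set over the 5' one was 1.57 and 1.53 on the day 4 arrays, against 1.78 and 1.58 on the day 2 arrays. As markers of the labelled cell type, Pou5f1 lay between 4243 and 7848 and Nanog between 1261 and 1512 over the 4 arrays, while Sox2 and Esrrb were lower on day 4, as described below. The targeted gene Jarid2 had intensities of 709 and 710 on day 4, against 1467 and 1789 on day 2, and fell 2.28-fold (log2 change -1.19, SE 0.17, adjusted p 0.00959). Leaving out a day 4 array ended that call (adjusted p 0.0501 without replicate 1 and 0.0545 without replicate 2). The same Jarid2 probe set was at 1257 to 1470 on the arrays labelled null on day 4 and at 1754 to 2797 on those labelled null on day 2, which is not lower than in Fl/Fl cells. Whether these probes fall inside the deleted exons is not stated in the labels, so this level does not check the null label.

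Changes are differences of log2(intensity + 4), and a fold is 2 raised to that difference, so that folds of dim genes come out too small. Each p comes from limma's moderated test, adjusted by Benjamini-Hochberg over 18194 genes, and a gene was called at an adjusted p under 0.05. Between day 2 and day 4, 1436 genes (7.89%) were called higher and 1158 (6.36%) lower, which together make 2594 genes (14.3%). At least 2-fold were 840 of the higher genes (4.62%) and 367 of the lower genes (2.02%). The median change over all genes was 0.0. For Fl/Fl day 4 against Fl/Fl day 2 the fit called 1618 genes without day 2 replicate 1, 1684 without day 4 replicate 1 and 1432 without day 4 replicate 2. In the same fit, 931 genes (5.12%) changed between day 0 and day 2, and 1255 (6.9%) between day 4 and day 6, although these steps share arrays with the step between day 2 and day 4 and are set beside it only as values.

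Most of the primitive streak transcription factors that were measured rose. Of 16 listed factors 14 were measured, 8 rose and 0 fell (9 and 0 at an unadjusted p under 0.05), against 7.89% higher and 6.36% lower among all genes. The median log2 change of the 14 was 1.63, against 0.0 over all genes. Because the arrays measured bulk RNA, more cells of a type and more RNA per cell cannot be told apart here or below. Mixl1, a homeobox factor of the streak and of mesendoderm, had intensities of 1964 and 2110 on day 4, against 5 and 5 on day 2. The day 2 arrays were at the floor and the day 4 arrays were close together, and the rise was 227-fold (log2 change 7.82, SE 0.72, adjusted p 0.00259). Sp5, a zinc finger factor that is a direct Wnt target in the streak, was at 1248 and 1001 on day 4, against 8 and 15 on day 2. Its groups were far apart, with a 74.3-fold rise (log2 change 6.22, SE 0.41, adjusted p 0.000932).

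Eomes, a T-box factor needed for mesoderm migration and endoderm formation, differed from these in that it was already measurable before the step. It was at 1216 and 1094 on day 4, against 87 and 110 on day 2, which is 11.4-fold higher (log2 change 3.51, SE 0.37, adjusted p 0.00381), and its second probe set rose by a log2 change of 3.21 (adjusted p 0.0032). Lhx1, a LIM homeobox factor of anterior mesendoderm and node, was at 292 and 443 on day 4, against 7 and 6 on day 2. That was a 34.7-fold rise (adjusted p 0.00107), while a second, dimmer Lhx1 probe set gave a log2 change of 2.45 that missed the threshold (adjusted p 0.0811). Evx1, a homeobox factor of the posterior streak, was at 117 and 166 on day 4, against 5 and 4 on day 2. Gsc, which marks the anterior streak and the organizer, was at 98 and 126 on day 4, against 6 and 5 on day 2. Both were at the floor on day 2 and clear of it on day 4, with rises of 16.9-fold for Evx1 (adjusted p 0.000229) and 12.1-fold for Gsc (adjusted p 0.000876). Snai1, a zinc finger repressor of E-cadherin, was at 121 and 181 on day 4, against 13 and 31 on day 2, a 6.23-fold rise (adjusted p 0.0087, and 0.133 with the 4 compared arrays alone).

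The eighth call, Foxa2, a forkhead factor of endoderm and node, was a change at the floor. Foxa2 had intensities of 7 and 8 on day 4, against 4 and 4 on day 2, and its adjusted p of 0.00796 became 0.983 when all 30 arrays entered the fit and 0.0601 with the 4 compared arrays alone. The factors of the mesoderm that leaves the streak did not pass. Mesp1, which marks early cardiac and head mesoderm, was at 6 and 15 on day 4, against 5 and 5 on day 2 (log2 change 0.62, adjusted p 0.255). Msgn1, a factor of presomitic mesoderm, was at 6 and 8 on day 4, against 4 and 4 on day 2 (adjusted p 0.117). Nkx1-2, a homeobox factor of the posterior epiblast, was at 16 and 11 on day 4, against 7 and 8 on day 2 (adjusted p 0.341). Mesp2, Tbx6 and Hes7, genes of the presomitic mesoderm and its segmentation, had log2 changes between -0.05 and 0.0, with all 4 arrays at 11 or less.

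**Figure D1:**
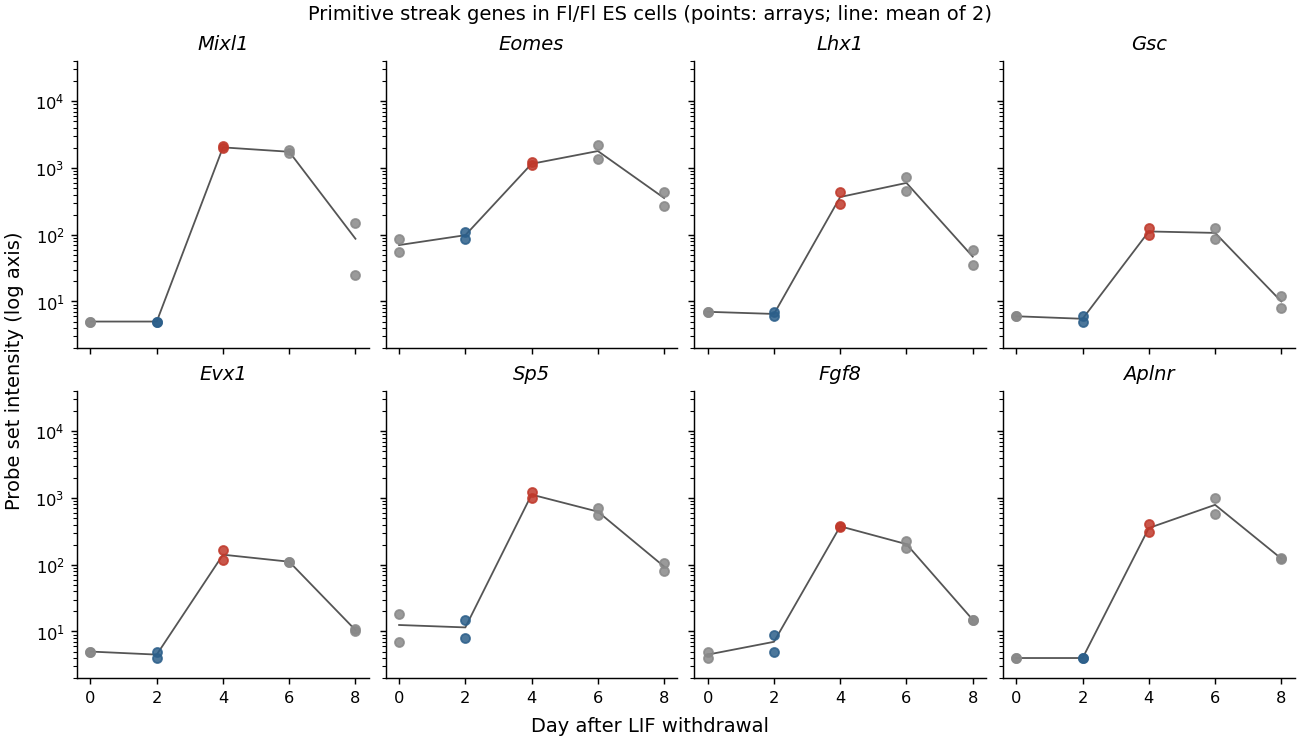
Intensity on a log axis against the day after LIF withdrawal for 8 streak genes in Fl/Fl cells, with 1 point per array (day 2 blue, day 4 red, other days grey) and a line through the mean of the 2 arrays. Mixl1 lay at 5 on all arrays of days 0 and 2, at 1964 and 2110 on day 4 and at 149 and 25 on day 8, and each gene shown was lower on day 8 than on day 4.

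The step before gave no such call. None of the 14 factors was called between day 0 and day 2 (0 higher and 0 lower by limma), where 2.03% of all genes were called higher and 3.08% lower. A list of 14 is too short to set 0 calls apart from those shares. The difference between the day 2 to day 4 step and the day 0 to day 2 step was itself called for 1143 genes (6.28%), and higher for 739 of them (4.06%) and lower for 404 (2.22%). With each array centred on its median these were 664 and 607. Among the streak factors it was called higher for 5 of 14, namely Mixl1, Sp5, Lhx1, Evx1 and Gsc, and lower for 0. Mixl1 differed between the steps by a log2 value of 7.82 (adjusted p 0.0264), and that call was lost without day 0 replicate 1 and without either array of days 2, 4 or 6 (adjusted p 0.0556 to 0.116). Without day 0 replicate 2 it held, and 2475 genes were called in all for the difference between the steps day 2 to 4 and day 0 to 2 in Fl/Fl. Lhx1 lost its call without day 2 replicate 2 (adjusted p 0.0507) and by its second probe set (adjusted p 0.397). With all 30 arrays in the fit the difference missed the threshold for Lhx1 (adjusted p 0.244) and Gsc (adjusted p 0.31), which leaves 3 of the 5. Between day 6 and day 8, a step that shares no array with the one described, 818 genes were called (4.5%), with 1.92% of all genes higher and 2.57% lower. There, 6 of the 14 streak factors fell and 1 rose. Mixl1 was at 149 and 25 on day 8, against 1843 and 1658 on day 6 (log2 change -4.72, adjusted p 0.0324), and Evx1 was at 10 and 11 on day 8, against 111 and 111 on day 6 (log2 change -2.99, adjusted p 0.00197). The factor called higher was Foxa2, at 12 and 10 on day 8, against 4 and 4 on day 6 (adjusted p 0.00618), which was again a change close to the floor.

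RefSeq promoter windows, which run from 250 bases before to 50 bases after a gene's start on mouse build GRCm38.p6, were listed for 7 of the 8 called streak factors. Mixl1 had no entry. The windows of Sp5 and Evx1 are shown because they hold a letter match to a searched motif and both genes rose far above the floor, and that of Fgf4 because it is the largest fall described below. Capitals mark the matches, which are CTTTGA, the core of a TCF/LEF site, at bases -204 to -199 and -104 to -99 from the start of Sp5, and the octamer ATTTGCAT, bound by Oct4-class POU factors, at -126 to -119 in Evx1. Sp5 lies at chr2:70474673-70474972, Evx1 at chr6:52313248-52313547 and Fgf4 at chr7:144861136-144861435, and each is on the plus strand and printed 5′ to 3′.
Sp5: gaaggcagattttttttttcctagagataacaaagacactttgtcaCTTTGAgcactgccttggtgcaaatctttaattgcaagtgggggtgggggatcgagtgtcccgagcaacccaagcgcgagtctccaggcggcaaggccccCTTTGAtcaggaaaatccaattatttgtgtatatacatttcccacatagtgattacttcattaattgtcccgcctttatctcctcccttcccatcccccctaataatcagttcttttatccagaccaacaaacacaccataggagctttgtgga
Evx1: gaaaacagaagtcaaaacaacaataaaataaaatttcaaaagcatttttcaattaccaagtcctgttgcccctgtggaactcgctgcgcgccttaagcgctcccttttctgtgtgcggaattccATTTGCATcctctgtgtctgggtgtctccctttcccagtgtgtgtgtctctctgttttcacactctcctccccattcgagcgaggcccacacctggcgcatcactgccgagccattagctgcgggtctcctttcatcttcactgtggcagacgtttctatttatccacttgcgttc
Fgf4: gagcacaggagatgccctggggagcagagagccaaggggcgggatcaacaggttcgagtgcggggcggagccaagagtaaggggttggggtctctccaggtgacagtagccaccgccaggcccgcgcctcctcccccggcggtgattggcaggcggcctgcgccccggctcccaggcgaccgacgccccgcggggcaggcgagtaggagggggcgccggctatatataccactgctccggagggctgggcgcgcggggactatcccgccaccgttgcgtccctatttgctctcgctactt
Both strands were searched, and no searched motif overlaps another one in these windows. A gene with several windows was counted if any of them held the motif. The TCF/LEF core was found for 2 of the 7 streak factors (28.6%), against 18.2% of all 27025 genes with a window. These were Sp5 and Foxa2, whose matching window is not shown because the Foxa2 change lay at the floor. The octamer was in 1 of 7 (14.3%), against 1.97% of all genes. The FOXH1 motif AATNNACA, the T-box core GGTGTGA and the E-box CACGTG were in no window of the 7 factors, against 13.9%, 4.6% and 8.09% of all genes. A match here describes letters in the window and is not evidence of binding.

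Fgf8, Aplnr and Cited1, all expressed in the streak or its mesoderm, rose as well. Fgf8, the fibroblast growth factor that drives cells away from the streak, was at 367 and 386 on day 4, against 5 and 9 on day 2. It rose 35.2-fold (log2 change 5.14, SE 0.20, adjusted p 0.000229). Aplnr, the apelin receptor of nascent mesoderm, was at 309 and 401 on day 4, against 4 and 4 on day 2. The brightest Aplnr probe set rose 44.5-fold (adjusted p 0.000383), while a second one gave a log2 change of 1.76 (adjusted p 0.105). Cited1, a transcriptional coregulator, was at 822 and 884 on day 4, against 40 and 60 on day 2, and rose 16.1-fold (adjusted p 0.000814). Over the FGF pathway list 3 of 21 measured genes rose and 2 fell (14.3% and 9.52%, against 7.89% and 6.36% of all genes), with a median log2 change of 0.0. Dusp4, a phosphatase that dampens ERK signalling, rose 5.37-fold (adjusted p 0.000467), and Fgfr1 rose 1.78-fold (adjusted p 0.0271). Spry2, a feedback inhibitor of FGF receptors, fell 1.87-fold (adjusted p 0.00616), and Fgf4 fell as described below. The Fgfr1 call ended without day 2 replicate 1 and without either array of day 4 or day 6 (adjusted p 0.0603 to 0.131). The FGF list held 4 falling genes without day 2 replicate 1. The Spry2 call rests on its brightest probe set, since the second gave a log2 change of 0.0.

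The Wnt list held 27 measured genes, of which 10 rose and 1 fell (37.0% and 3.7%, against 7.89% and 6.36% of all genes). Its median log2 change was 0.2. Wls, which carries Wnt ligands to the cell surface, was at 755 and 834 on day 4, against 78 and 90 on day 2. The rise was 9.08-fold (adjusted p 0.00706), and a second probe set gave a log2 change of 3.19 (adjusted p 0.00188). Axin2, a negative feedback target of Wnt signalling, was at 472 and 469 on day 4, against 78 and 93 on day 2, 5.32-fold higher (adjusted p 0.00388), with a log2 change of 1.15 by its second probe set (adjusted p 0.0732). Wnt5b, a noncanonical ligand, was at 101 and 132 on day 4, against 19 and 23 on day 2, 4.8-fold higher (adjusted p 0.000816). Fzd10, a Wnt receptor, rose 6.8-fold (adjusted p 0.00504) by its brightest probe set, while the second gave 0.0. Tcf7l1, a repressor of Wnt targets in ES cells, was the gene of the list that fell, at 346 and 478 on day 4, against 935 and 1277 on day 2 (2.67-fold, adjusted p 0.017). Its call ended without day 2 replicate 2 (adjusted p 0.066) and without day 4 replicate 1 (adjusted p 0.071). Wnt3, Wnt4 and Wnt5a, named after their values were seen, were called higher by 3.52-fold, 6.18-fold and 4.68-fold. Of these, Wnt3 and Wnt4 lost the call when any 1 of the 4 compared arrays was left out (adjusted p 0.0723 to 0.128), and Wnt5a when either day 2 array or day 4 replicate 2 was (adjusted p 0.0787 to 0.0879). The count of rising Wnt genes was 6 without day 2 replicate 1 or day 4 replicate 1 and 5 without day 4 replicate 2.

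Of 19 measured genes of the Nodal and activin pathway 3 rose and 3 fell (15.8% each, against 7.89% and 6.36% of all genes), and the median log2 change was 0.13. With all 30 arrays in the fit 1 rose and 2 fell. Fst, the secreted inhibitor follistatin, which binds activins, was at 3462 and 3285 on day 4, against 319 and 431 on day 2. It rose 9.01-fold (adjusted p 0.00376), and had also risen between day 0 and day 2 (log2 change 3.85, adjusted p 0.00387), and the difference between the steps missed the threshold (adjusted p 0.7). Furin, a protease that matures Nodal, rose 2.1-fold (adjusted p 0.00582, and 0.183 with all 30 arrays in the fit). The third gene that rose was Acvr1b, an activin receptor, whose adjusted p was 0.253 with all 30 arrays and 1.0 by its second probe set. Gdf3, a Nodal-related ligand of pluripotent cells, was at 216 and 249 on day 4, against 1161 and 1181 on day 2, and fell 4.98-fold (adjusted p 0.00125). Skil, a transcriptional corepressor of Smad proteins, fell 1.67-fold (adjusted p 0.00213), and Smad7, an inhibitory Smad, was called lower at an adjusted p of 0.041 that lay between 0.0657 and 0.174 when any 1 array of days 2, 4, 6 or 8 was left out. Nodal itself, named after its values were seen, was at 2844 and 2811 on day 4, against 1483 and 1553 on day 2. Its arrays did not overlap, but the log2 change of 0.9 (95% interval -0.06 to 1.85) missed the threshold (adjusted p 0.223), while its second probe set passed it (log2 change 1.1, adjusted p 0.045).

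Of 21 measured BMP pathway genes 4 rose and 2 fell (19.0% and 9.52%, against 7.89% and 6.36% of all genes), with a median log2 change of 0.0. With all 30 arrays in the fit 2 rose and 0 fell. Bmp4, a ligand of mesoderm induction, was at 250 and 347 on day 4, against 73 and 110 on day 2. It rose 3.19-fold (adjusted p 0.0109), and its adjusted p was 0.0545 without day 4 replicate 2, 0.142 with all 30 arrays in the fit and 0.129 with the 4 compared arrays alone. Its course had turned: Bmp4 had fallen between day 0 and day 2 (log2 change -2.28, adjusted p 0.00891), and the difference between the steps was a log2 value of 3.95 (adjusted p 0.00795). Msx1, a homeobox target of BMP signalling, rose 5.46-fold (adjusted p 0.00479) by its brightest probe set, with 0.35 on the log2 scale by the second. Id3, an inhibitor of basic helix-loop-helix factors that BMP signalling induces, was at 343 and 409 on day 4, against 736 and 762 on day 2, and fell 1.99-fold (adjusted p 0.00431, but 0.167 with all 30 arrays and 0.0651 with the 4 alone). Bmp2 and Msx2, named after their values were seen, did not pass in this step (adjusted p 0.0703 and 0.913). In the next step, which shares the day 4 arrays, 8 of the 21 genes rose and 0 fell, beside 3.97% and 2.93% of all genes, and Bmp2 reached 1225 and 1133 on day 6, against 41 and 51 on day 4.

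Of 28 measured genes of nascent and lateral mesoderm 5 rose and 1 fell (17.9% and 3.57%, against 7.89% and 6.36% of all genes), with a median log2 change of 0.03. In the next step 8 rose and 0 fell, beside 3.97% and 2.93% of all genes. Besides Aplnr, Cited1 and Msx1, the genes that rose were Rspo3, a secreted enhancer of Wnt signalling, and Kdr, the VEGF receptor of vascular and cardiac progenitors. Kdr was at 41 and 63 on day 4, against 12 and 11 on day 2, 3.54-fold higher (adjusted p 0.00715), and had an adjusted p of 0.135 with all 30 arrays in the fit. Rspo3 rose 4.6-fold (adjusted p 0.000424), with 0.0 by its second probe set. Tcf15, a factor of paraxial mesoderm that ES cells also express, was at 77 and 54 on day 4, against 247 and 274 on day 2, and fell 3.85-fold (adjusted p 0.00554).

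Among 23 measured genes of definitive and anterior mesendoderm, 8 rose and 1 fell (34.8% and 4.35%, against 7.89% and 6.36% of all genes), with a median log2 change of 0.23. The 8 include Gsc, Fst and Foxa2, all described above, and the Foxa2 call was a change at the floor. The gene that fell was Otx2, described below. By the second brightest probe sets 5 rose and 0 fell. Sox17 and Gata4, endoderm factors of the list, stayed below 20 on all 4 arrays. Cyp26a1, the enzyme that degrades retinoic acid, was at 490 and 703 on day 4, against 4 and 5 on day 2, and rose 69.6-fold (log2 change 6.12, SE 0.28, adjusted p 0.000357). Rdh10, which makes the precursor of retinoic acid, also rose, to 960 and 872 on day 4, against 112 and 154 on day 2 (6.79-fold, adjusted p 0.000635). Gata6, a zinc finger factor of endoderm and cardiac mesoderm, was at 62 and 73 on day 4, against 7 and 7 on day 2 (6.48-fold, adjusted p 0.00272), with a log2 change of 0.27 by its second probe set. Tmprss2, a membrane serine protease, rose 14.1-fold (adjusted p 0.000817) and did so by its second probe set too (log2 change 3.48). Nog, a secreted BMP inhibitor, was at 17 and 64 on day 4, against 3 and 3 on day 2. Its arrays of day 4 were far apart, and its adjusted p of 0.0355 was 0.0593 to 0.136 when any 1 array of days 0, 2, 6 or 8 was left out. Of 13 measured genes of the retinoic acid pathway 2 rose, namely Cyp26a1 and Rdh10, and 2 fell (15.4% each), namely the receptor Rarg (1.9-fold, adjusted p 0.00445) and the binding protein Crabp2 (3.32-fold, adjusted p 0.0122). The Crabp2 call ended when any 1 of the 4 compared arrays was left out (adjusted p 0.0574 to 0.0624).

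The Cdx and Hox genes pattern the posterior body after the streak has formed. Of 15 measured, limma called 0 higher and 0 lower (1 and 0 at an unadjusted p under 0.05), against 7.89% and 6.36% of all genes. A list of 15 is too short to set 0 calls apart from those shares. The median log2 change was 0.0, and with all 30 arrays in the fit 2 were called higher and 0 lower. Cdx2, a homeobox factor of the posterior embryo and of trophoblast, came closest. It was at 32 and 68 on day 4, against 11 and 10 on day 2, a log2 change of 1.81 (95% interval 0.69 to 2.94) with an adjusted p of 0.0549. Cdx2 passed the threshold under 8 of the 20 alternative settings, among them the fit of all 30 arrays. Hoxb1 was at 5 and 9 on day 4, against 5 and 5 on day 2, and Hoxb3 was at 31 and 24 on day 4, against 43 and 31 on day 2, so that the groups of both genes touched.

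The largest rises held genes outside the streak lists as well. Gbp2, an interferon-inducible GTPase, was at 4445 and 4927 on day 4, against 88 and 116 on day 2, 44.6-fold higher (adjusted p 0.00134). Ghr, the growth hormone receptor, was at 769 and 709 on day 4, against 14 and 26 on day 2, 31.9-fold higher (adjusted p 0.000424), and was at 142 and 153 on day 6. Col5a1, a fibrillar collagen chain, was at 1119 and 1139 on day 4, against 38 and 47 on day 2, 24.5-fold higher (adjusted p 0.000925). Tnfsf9, a ligand of the tumour necrosis factor family, rose 22.6-fold (adjusted p 0.000203), Lgals3, the lectin galectin-3, 21.4-fold (adjusted p 0.00166), and Synpo2l, a protein that binds actin, 30.5-fold (adjusted p 0.011). Mocs1, an enzyme of molybdenum cofactor synthesis, and Pcdh7, a protocadherin, rose 21.6-fold and 20.3-fold by their brightest probe sets (adjusted p 0.00761 and 5.96e-05), but their second probe sets gave log2 changes of 0.0 and 0.42. Synpo2l lost its call without day 4 replicate 1 (adjusted p 0.0547) or day 4 replicate 2 (adjusted p 0.0619).

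A stricter description asked which genes were above an intensity of 200 on both day 4 arrays and below 50 on all 4 arrays of days 2 and 0. That held for 27 of 18194 genes (0.148%). All 27 were among the genes called higher, which the choice on the same arrays made likely in advance. Mixl1, Sp5, Lhx1, Fgf8, Aplnr and Cyp26a1 were among them. So were Nt5e, an ectonucleotidase, at 532 and 630 on day 4, against 27 and 26 on day 2, and the growth factor Pdgfb, at 219 and 217 on day 4, against 18 and 19 on day 2. Tgfb1 was at 291 and 343 on day 4, against 9 and 23 on day 2, by a probe set whose rise its second probe set did not share (adjusted p 1.0). These 3 genes, and Gbp3, Irgm1, Ifi35 and Psmb8 below, were named after their values were seen. Gbp3, Irgm1 and Ifi35 are interferon-inducible and Psmb8 is an immunoproteasome subunit. They were at 216 and 248 (Gbp3), 327 and 309 (Irgm1), 222 and 250 (Ifi35) and 257 and 351 (Psmb8) on day 4, while on day 2 all 4 stayed between 13 and 42. The second Psmb8 probe set gave a log2 change of -0.13 (adjusted p 0.654). With thresholds of 300 and 30 in place of 200 and 50, it held for 8 genes. Of the 27 genes, 14 had their highest daily mean on day 4, 12 on day 6 and 1 on day 8. The thresholds themselves kept any peak from falling on day 0 or day 2. On day 8, 3 were again below 50 on both arrays and 5 were above 200 on both.

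Of 19 measured genes of epithelial junctions 11 rose and 0 fell (57.9% and 0.0%, against 7.89% and 6.36% of all genes; 12 higher and 2 lower at an unadjusted p under 0.05), with a median log2 change of 0.83, and 7 rose with all 30 arrays in the fit. Dsp, the desmosomal plaque protein desmoplakin, was at 4916 and 4693 on day 4, against 473 and 386 on day 2. It rose 11.1-fold (adjusted p 0.000208), and by a second probe set with a log2 change of 3.64. Krt19, a keratin of simple epithelia, was at 3709 and 3758 on day 4, against 168 and 176 on day 2, 21.2-fold higher (adjusted p 0.000671). Krt8 and its partner Krt18 rose 6.24-fold and 4.88-fold (adjusted p 0.0011 and 0.000244). The tight junction claudins Cldn4 and Cldn7 rose 6.08-fold and 2.74-fold (adjusted p 0.00283 and 0.00214), and Cldn6 1.78-fold (adjusted p 0.00471). A pair of adhesion genes, named after their values were seen, moved less. Cdh1, which encodes E-cadherin, was at 8077 and 8449 on day 4, against 5996 and 5147 on day 2 (1.49-fold, adjusted p 0.0141, and 0.0552 and 0.0774 without day 4 replicates 1 and 2). Epcam was at 3883 and 4327 on day 4, against 4576 and 4750 on day 2 (log2 change -0.19, 95% interval -0.47 to 0.1, adjusted p 0.385).

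Of 20 measured mesenchymal genes 11 rose and 0 fell as well (55.0% and 0.0%, against the same shares of all genes; 12 and 1 at an unadjusted p under 0.05), with a median log2 change of 1.18. Fn1, the matrix protein fibronectin, was at 8909 and 8501 on day 4, against 1539 and 1702 on day 2, 5.37-fold higher (adjusted p 0.000535). Vim, the intermediate filament vimentin, was at 9889 and 8611 on day 4, against 2004 and 1697 on day 2, 5.0-fold higher (adjusted p 0.00127). Itga5, the fibronectin receptor subunit, rose 3.53-fold (adjusted p 0.00245), and Mmp14, a membrane metalloprotease, 2.42-fold (adjusted p 0.00296). Cdh2, which encodes N-cadherin, was at 1512 and 1284 on day 4, against 217 and 173 on day 2, and was called 7.07-fold higher (adjusted p 0.0143), a call lost when any 1 of the 4 compared arrays was left out (adjusted p 0.0578 to 0.0719). Cdh2 was named after its values were seen, and so were Zeb1 and Zeb2, repressors of epithelial genes, which did not pass. Zeb1 was at 8 and 14 on day 4, against 14 and 13 on day 2, and Zeb2 at 22 and 20 on day 4, against 24 and 20 on day 2. The count of rising mesenchymal genes was 6 without either day 2 array, 7 without day 4 replicate 1 and 5 without day 4 replicate 2.

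Of 17 measured fibroblast markers 3 rose and 0 fell (17.6% and 0.0%, against 7.89% and 6.36% of all genes), with a median log2 change of 0.28, and 1 rose with all 30 arrays in the fit. Their summed intensity was 7930 and 8461 on day 4, against 3066 and 2818 on day 2, and it was 40370 and 46188 on day 8. S100a6, a calcium-binding protein, and Thbs1, a matrix glycoprotein, were higher by 5.97-fold and 4.94-fold (adjusted p 0.000208 and 0.00215), and Thbs1 did not pass with all 30 arrays (adjusted p 0.118). Both are in that sum and make up most of it on day 4, with S100a6 at 4094 and 4636 on day 4, against 711 and 741 on day 2, and Thbs1 at 2294 and 2345 on day 4, against 438 and 496 on day 2. Postn, Thy1, Lum, Fap, Thbs2 and Fbln2 stayed below 20 on all 4 arrays. Whether fibroblast-like or feeder cells had a part in the rise of matrix genes was not tested.

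Of 30 measured naive pluripotency genes 17 fell and 2 rose (56.7% and 6.67%, against 6.36% and 7.89% of all genes), with a median log2 change of -1.96. Fgf4, the growth factor through which ES cells prime themselves to differentiate, was at 5 and 9 on day 4, against 363 and 434 on day 2. It reached the floor, with a 37.1-fold fall (log2 change -5.21, SE 0.22, adjusted p 0.000271), and its second probe set fell too (log2 change -5.1). Esrrb, a nuclear receptor of the naive network, was at 12 and 25 on day 4, against 211 and 276 on day 2, and fell 11.4-fold (adjusted p 0.00425), while its second probe set gave -0.02. Dppa3, a maternal factor that protects DNA methylation in the zygote, was at 75 and 95 on day 4, against 853 and 915 on day 2, and fell by 3.33 on the log2 scale (adjusted p 0.00217). Mybl2, a cell cycle factor of ES cells, fell 3.71-fold (adjusted p 0.000559). Ooep, an oocyte protein also made in ES cells, fell 17.5-fold (adjusted p 0.000722).

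Dnmt3l, the cofactor of the de novo DNA methyltransferases, was at 156 and 164 on day 4, against 4509 and 4209 on day 2, which is 26.6-fold lower (adjusted p 0.027). Dppa2, a chromatin factor of pluripotent cells, was at 144 and 158 on day 4, against 2306 and 2104 on day 2, 14.3-fold lower (adjusted p 0.0136). Tex19.1, which restrains retrotransposons, was at 18 and 31 on day 4, against 696 and 636 on day 2, 24.1-fold lower (adjusted p 0.0103). Their groups were far apart, but the spread at other days entered the test, and the calls of Dnmt3l and Dppa2 were lost when any 1 of the 4 compared arrays was left out (adjusted p 0.0569 to 0.115). That of Dnmt3l was lost without either day 6 array too (adjusted p 0.055), and that of Tex19.1 without day 2 replicate 1 or day 4 replicate 1 (adjusted p 0.0566 and 0.0561). The count of falling naive genes was 10 without day 2 replicate 1, and 11 without day 2 replicate 2 or day 4 replicate 1.

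Some naive genes had fallen before day 2. Between day 0 and day 2, a step that shares the day 2 arrays, 16 of the 30 fell and 0 rose (against 3.08% and 2.03% of all genes). The median log2 change in that step was -1.96. The difference between the steps was called for 8 genes in the direction of a smaller fall or a rise after day 2, and for 2 in the other, beside 4.06% and 2.22% of all genes. Klf4, named after its values were seen, was at 1564 and 855 on day 0, 25 and 16 on day 2 and 23 and 18 on day 4, with a log2 change of 0.02 in the second step (95% interval -0.84 to 0.87, adjusted p 1.0). Klf5, its relative, was at 3698 and 3489 on day 4, against 997 and 1104 on day 2, and rose 3.41-fold (adjusted p 0.00165) after a fall in the first step (log2 change -1.77, adjusted p 0.00292). Socs3, the feedback inhibitor of LIF signalling, which was named after its values were seen, was at 233 and 276 on day 4, against 90 and 83 on day 2, and rose 2.85-fold (adjusted p 0.0136), a call lost without either day 2 array or day 4 replicate 2 (adjusted p 0.0596 to 0.0751). Nanog, named after its values were seen, was at 1261 and 1435 on day 4, against 1376 and 1512 on day 2, so that its groups overlapped (log2 change -0.1, 95% interval -0.99 to 0.79, adjusted p 1.0). It was at 160 and 209 on day 6, where it was called lower than on day 4 (log2 change -2.85, adjusted p 0.0135).

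**Figure D2:**
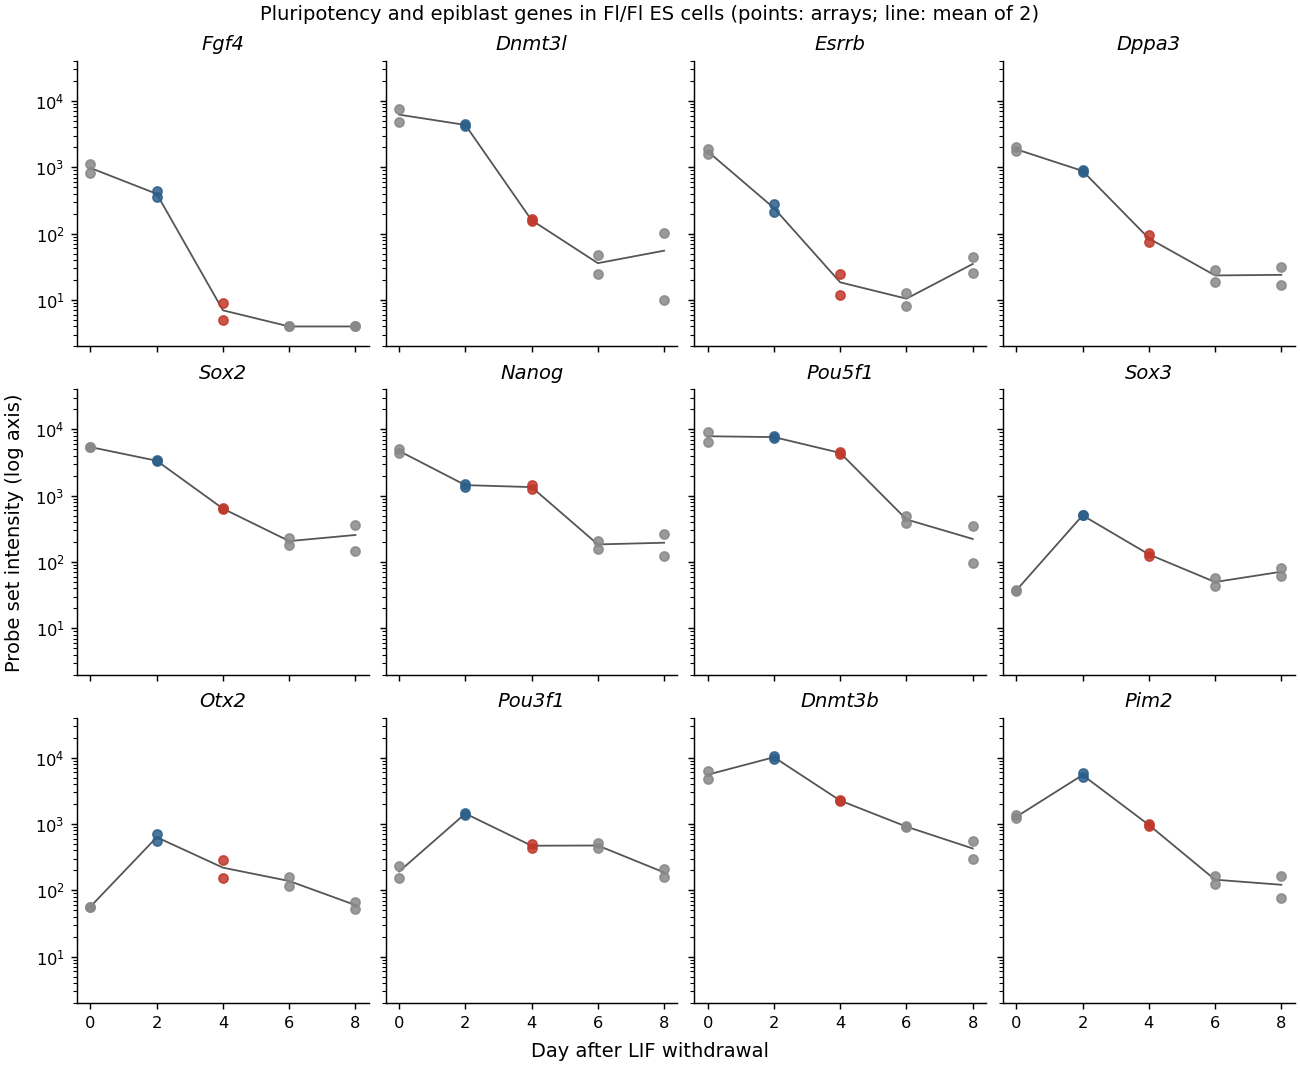
Intensity on a log axis against the day after LIF withdrawal for 12 pluripotency and epiblast genes in Fl/Fl cells, with 1 point per array (day 2 blue, day 4 red, other days grey) and a line through the mean of the 2 arrays. Fgf4 dropped to 5 and 9 on day 4, Nanog stayed at 1261 and 1435, and Sox3, Otx2, Pou3f1, Dnmt3b and Pim2 had their highest values on day 2.

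Most core pluripotency genes were called lower. Of 13 measured 9 fell and 0 rose (69.2% and 0.0%, against 6.36% and 7.89% of all genes), with a median log2 change of -1.06. Rest, a repressor of neuronal genes, was at 744 and 660 on day 4, against 1397 and 1367 on day 2, and fell 1.97-fold (adjusted p 0.00356). Sox2 and Pou5f1, the factors at the centre of the network, and Utf1, a chromatin protein, were named after their values were seen. Sox2 was at 623 and 654 on day 4, against 3307 and 3425 on day 2, 5.25-fold lower (adjusted p 0.0177), and Utf1 was 9.24-fold lower (adjusted p 0.0211). Pou5f1, which encodes Oct4, was at 4243 and 4592 on day 4, against 7441 and 7848 on day 2. Its groups did not overlap, but its spread at other days was wide, and the log2 change of -0.79 (95% interval -2.25 to 0.66) missed the threshold (adjusted p 0.494). On day 6 it was at 384 and 494, called lower than on day 4 (log2 change -3.33, adjusted p 0.0329). The calls of Sox2 and Utf1 were lost when any 1 of the 4 compared arrays was left out (adjusted p 0.0743 to 0.097), and the list then held 2 or 3 falling genes: 3 without either day 2 array or day 4 replicate 2, and 2 without day 4 replicate 1.

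Genes of the formative and primed epiblast turned round at day 2. Of 20 measured 9 fell and 2 rose between day 2 and day 4 (against 6.36% and 7.89% of all genes), with a median log2 change of -0.73. Between day 0 and day 2, by contrast, 10 rose and 1 fell (against 2.03% and 3.08% of all genes), with a median of 1.04. Since the 2 steps share the day 2 arrays, the difference between them was tested as such, and it was called lower in the second step for 11 of the 20 (beside 2.22% of all genes) and higher for 1. Sox3, a SoxB1 factor of the epiblast and neural plate, was at 38 and 37 on day 0, 505 and 506 on day 2 and 124 and 137 on day 4. It fell 3.79-fold in the second step (adjusted p 0.00204), and the steps differed by a log2 value of -5.54 (adjusted p 0.00148). Dnmt3a, a de novo DNA methyltransferase, was at 98 and 137 on day 4, against 1018 and 1378 on day 2, and fell 9.91-fold (adjusted p 0.00115), as did its second probe set (log2 change -3.67). Dnmt3b, its relative, was at 2207 and 2308 on day 4, against 10709 and 9634 on day 2, 4.49-fold lower (adjusted p 0.0096).

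Pim2, a serine/threonine kinase, was at 996 and 944 on day 4, against 5156 and 5814 on day 2, 5.63-fold lower (adjusted p 0.0103). Sall2, a zinc finger factor, was at 63 and 116 on day 4, against 352 and 352 on day 2, 3.97-fold lower (adjusted p 0.0104). Otx2 and Pou3f1, factors of the formative state that were named after their values were seen, were 2.96-fold and 3.04-fold lower (adjusted p 0.0357 and 0.0104). All 4 had been lower on day 0 than on day 2, with day 0 intensities of 1350 and 1227 for Pim2, 67 and 67 for Sall2, 57 and 57 for Otx2 and 153 and 232 for Pou3f1. Fgf5, the marker most used for this state and also named after its values were seen, had no such change called: it was at 266 and 413 on day 4, against 268 and 263 on day 2 (log2 change 0.32, adjusted p 0.751). Without day 2 replicate 1 the adjusted p was 0.0551 for Dnmt3b, 0.055 for Sall2 and 0.0583 for Pou3f1, and without day 2 replicate 2 it was 0.0504 for Pim2. Without either day 4 array it was 0.0518 and 0.0528 for Dnmt3b and 0.0504 and 0.0594 for Pim2, and without day 4 replicate 2 it was 0.0624 for Pou3f1. The Otx2 call was lost in every fit that left out 1 array (adjusted p 0.0595 to 0.141) except the one without day 4 replicate 2. The list held 5 falling genes without day 2 replicate 1 and 4 without either day 4 array.

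**Figure D3:**
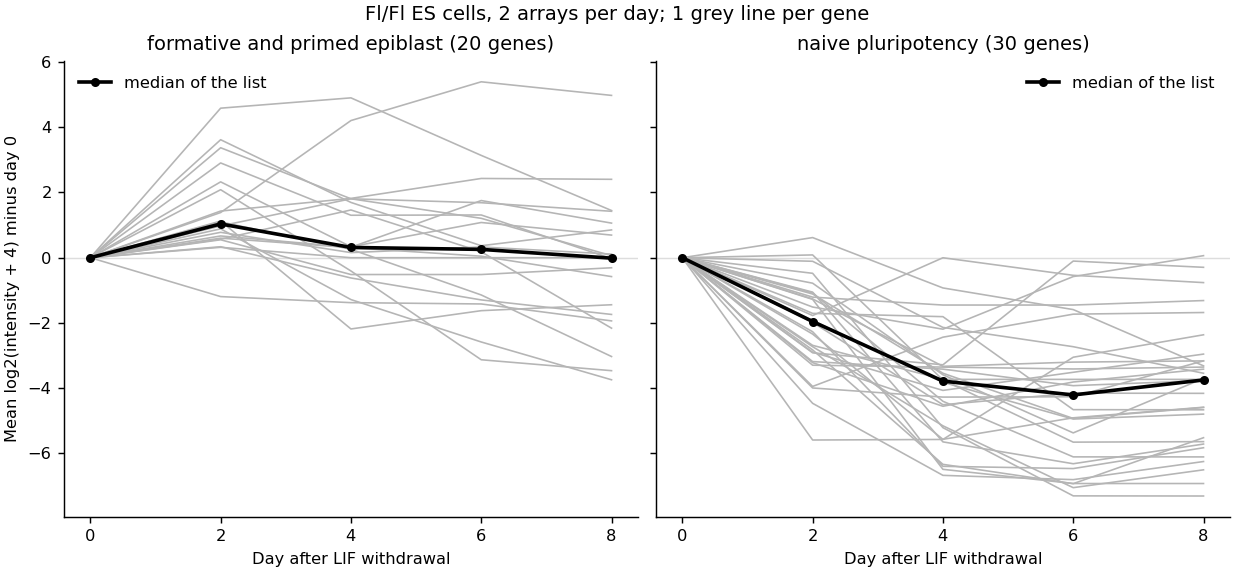
Mean log2(intensity + 4) minus the day 0 mean against the day after LIF withdrawal, with 1 grey line per gene and the list median in black, for 20 formative and primed epiblast genes (left) and 30 naive pluripotency genes (right) in Fl/Fl cells. The epiblast list had a median step of 1.04 between day 0 and day 2 and of -0.73 between day 2 and day 4, while the naive list fell in both steps with medians of -1.96.

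Of 14 measured germ cell genes 6 fell and 0 rose (42.9% and 0.0%, against 6.36% and 7.89% of all genes; 8 and 0 at an unadjusted p under 0.05), with a median log2 change of -0.83. Mael and Tdrd12, which act with piRNAs to silence transposons in germ cells, were lower by 7.04-fold and 13.4-fold (adjusted p 0.00158 and 0.00308). Mael was at 18 and 14 on day 4, against 147 and 126 on day 2, and Tdrd12 at 10 and 7 on day 4, against 125 and 209 on day 2. Ddx4, the germ cell helicase vasa, fell 3.51-fold (adjusted p 0.00594). Also among the 6 was Dppa3, which the naive list holds too. Dazl, another of them, lay near the floor, at 7 and 7 on day 4, against 20 and 13 on day 2. The Sycp3 call (adjusted p 0.0394) was lost with 16 added before log2 (adjusted p 0.0525) and with the 4 compared arrays alone (adjusted p 0.0514). Outside that list, Rhox5, a reproductive homeobox gene of the X-linked cluster that was listed with visceral endoderm, was at 233 and 285 on day 4, against 2578 and 2650 on day 2, and fell by 3.32 on the log2 scale (adjusted p 0.00945). Its relative Rhox6, listed with trophoblast, fell 6.43-fold (adjusted p 0.00418). The Rhox5 call ended without day 2 replicate 1 (adjusted p 0.0503) or day 4 replicate 1 (adjusted p 0.0529).

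Below 50 on both day 4 arrays and above 200 on both day 2 arrays were 16 genes (0.0879%), and thresholds of 30 and 300 left 3. All 16 were called lower, which the choice on the same arrays made likely in advance. Besides Fgf4, Esrrb and Tex19.1 they included Enpp3, an ectonucleotidase, at 40 and 49 on day 4, against 707 and 704 on day 2, and Cbr3, a carbonyl reductase, at 10 and 9 on day 4, against 299 and 307 on day 2. These fell 14.7-fold and 22.8-fold (adjusted p 0.00125 and 0.000166). Pla2g1b, a secreted phospholipase, was at 19 and 8 on day 4, against 444 and 435 on day 2, and fell 26.7-fold (adjusted p 0.00186). The noncoding RNAs Lncenc1 and Eprn had log2 changes of -3.9 and -3.46 and fell (adjusted p 0.00173 and 0.00609). Alpl, the alkaline phosphatase long used as an ES cell stain, and Rnf17, a germ cell protein, were named after their values were seen and were at 35 and 35 (Alpl) and 48 and 44 (Rnf17) on day 4, against 271 and 410 (Alpl) and 324 and 362 (Rnf17) on day 2. For 13 of the 16 both day 8 arrays were still below 50, and 11 had a lower mean on day 2 than on day 0. Ptch1, the Hedgehog receptor, lay outside the 16 with 61 and 84 on day 4, against 899 and 935 on day 2, and fell 12.2-fold (adjusted p 0.0058) by its brightest probe set, while the second gave -0.26 on the log2 scale.

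Of 22 measured cell cycle genes 6 fell and 2 rose (27.3% and 9.09%, against 6.36% and 7.89% of all genes), with a median log2 change of -0.26. With all 30 arrays in the fit 3 fell and 0 rose. The helicase subunits Mcm2, Mcm5 and Mcm7 were lower by 1.9-fold, 1.76-fold and 1.6-fold (adjusted p 0.00235, 0.00447 and 0.00158), with Mcm7 at 6044 and 5947 on day 4, against 9479 and 9667 on day 2. The genes that rose were the inhibitors Cdkn1a, at 1434 and 1268 on day 4, against 598 and 532 on day 2 (2.38-fold, adjusted p 0.00115), and Cdkn2b, at 269 and 255 on day 4, against 90 and 63 on day 2 (3.35-fold, adjusted p 0.0028). Cdkn1a, Mcm5, Mcm7 and Cdkn2b did not pass with all 30 arrays in the fit (adjusted p 0.0644 to 0.0986). Mki67 and Pcna, named after their values were seen, had log2 changes of -0.01 and -0.18 (adjusted p 1.0 and 0.106). Without day 4 replicate 1, and without day 4 replicate 2, 3 cell cycle genes fell.

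Of 21 measured neuroectoderm genes 3 rose and 2 fell (14.3% and 9.52%, against 7.89% and 6.36% of all genes, median -0.07), and Sox1 and Pax6 were below 20 on all 4 arrays. By the second brightest probe sets 0 rose and 3 fell. Ncam1, 1 of the 3 that rose, lay close to the floor, at 14 and 14 on day 4, against 8 and 7 on day 2. The summed neuroectoderm intensity was 5134 and 5401 on day 4, against 2047 and 2126 on day 2, and 3619 and 3897 of it on day 4 came from Nefl, a neurofilament chain that rose 5.53-fold (adjusted p 0.00409). The second Nefl probe set gave a log2 change of 2.29 that missed the threshold (adjusted p 0.153). Of 18 primitive and visceral endoderm genes 2 rose and 2 fell (11.1% each; median 0.0), and 11 of the 18, among them Afp, Ttr, Sox17, Gata4 and Hnf4a, were below 20 on all 4 arrays. Without day 2 replicate 2, 4 fell. A call there, Amn, was again a change at the floor, at 4 and 4 on day 4, against 5 and 5 on day 2. Of 13 trophoblast genes 2 rose and 2 fell (15.4% each; median 0.0), with Elf5, Gata3 and Hand1 below 20 on all 4 arrays. The trophoblast genes that rose, Krt7 and Plet1, both lost the call without either day 2 array or day 4 replicate 2, which left 0 rising. Against these sums, the summed naive pluripotency intensity was 9830 and 10332 on day 4, against 35824 and 38558 on day 2.

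**Figure D4:**
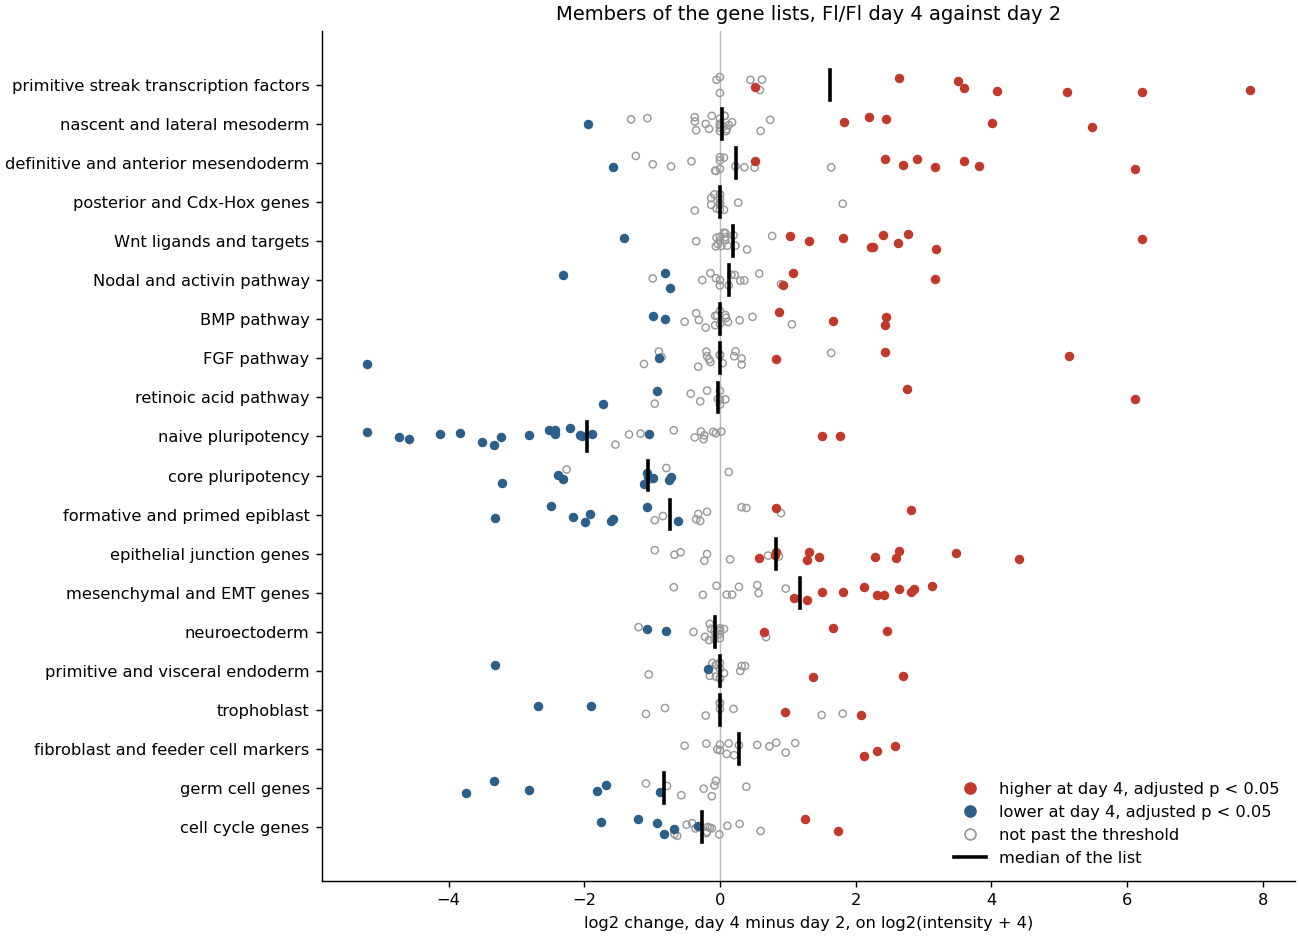
Log2 change of Fl/Fl day 4 minus day 2 on the horizontal axis for each measured member of 20 gene lists, with red and blue points for genes called higher and lower, open points for genes not called and a bar at the list median. The streak factors (median 1.63, 8 of 14 higher) and the naive pluripotency genes (median -1.96, 17 of 30 lower) lie on opposite sides of 0.

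The same step in the cells labelled null was set beside it in a fit of all 30 arrays. Cells labelled null changed 792 genes (4.35%) between day 2 and day 4, with 410 higher (2.25%) and 382 lower (2.1%), and the step differed between Fl/Fl and null for 192 genes (1.06%), with a higher step in Fl/Fl for 121 of them (0.665%) and a lower one for 71 (0.39%). With each array centred on its median these were 124 and 113. Among the 14 streak factors 2 rose in the cells labelled null and 0 fell, and 3 had a larger step in Fl/Fl. Mixl1 was at 1964 and 2110 on the Fl/Fl day 4 arrays, against 5 to 27 (median 6.0) on the 5 day 4 arrays labelled null, and at 5 on every day 2 array of both genotypes. The Fl/Fl step exceeded the null step by a log2 value of 7.41 (SE 1.13, adjusted p 0.00159). Evx1 was at 117 and 166 in Fl/Fl cells on day 4, against 5 to 6 in cells labelled null, and its step was larger by 4.05 (SE 0.62, adjusted p 0.00162). Sp5 was at 1248 and 1001 in Fl/Fl cells on day 4, against 7 to 93 (median 61.0) in cells labelled null, where it also rose (log2 change 2.35, adjusted p 0.0017). Its steps differed by 3.87 (SE 0.80, adjusted p 0.0164), a call lost without Fl/Fl day 2 replicate 1 (adjusted p 0.104) or Fl/Fl day 4 replicate 1 (adjusted p 0.0881).

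Lhx1 and Gsc were near the floor on all day 4 arrays labelled null, at 7 and at 6 to 9, but the differences of 5.12 and 3.55 missed the threshold (adjusted p 0.1 and 0.162). Eomes rose in both genotypes, with 1216 and 1094 in Fl/Fl cells on day 4, against 198 to 755 (median 305.0) in cells labelled null, and its steps differed by 1.02 (SE 1.05, adjusted p 0.961). On day 6 the arrays labelled null reached 1312 to 5127 for Mixl1 (median 2001.0) and 101 to 276 for Evx1 (median 115.0). The arrays labelled null were not alike in the Y-linked gene Eif2s3y, which was above 400 on 3 arrays of each day and at 12 to 290 on the other 2 of each day. Against the 3 alone, Mixl1, Sp5 and Evx1 kept their calls (adjusted p 0.00513, 0.00698 and 0.00952). Against the other 2, Sp5 did (adjusted p 0.015), while Mixl1 and Evx1 missed the threshold (adjusted p 0.0988 and 0.0752) with differences of 6.86 and 4.08.

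**Figure D5:**
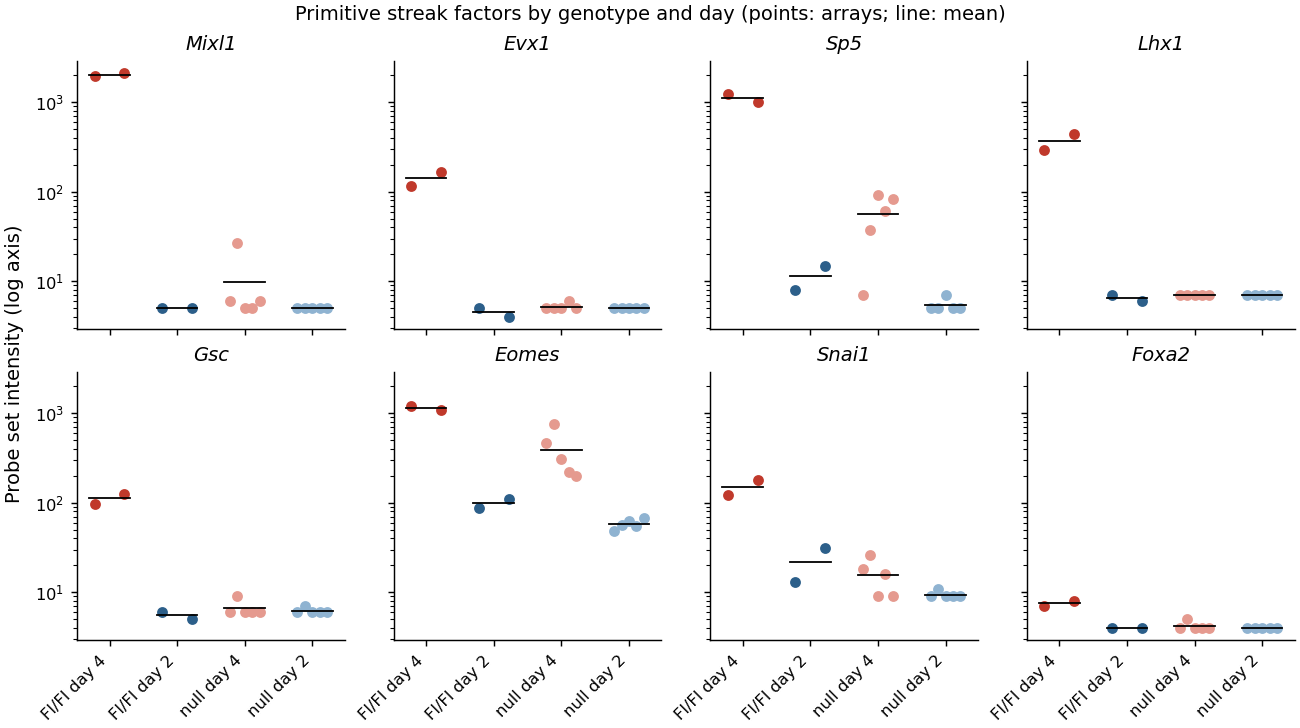
Intensity on a log axis for 8 streak factors in Fl/Fl day 4, Fl/Fl day 2, null day 4 and null day 2 cells, with the null cells so labelled, 1 point per array and a line at the mean (2 arrays per Fl/Fl group, 5 per null group). Mixl1 stood at 1964 and 2110 in Fl/Fl cells on day 4 and at 5 to 27 in null cells on day 4, while Eomes stood at 198 to 755 in those null cells.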

How the data were processed

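Total RNA was measured on 30 Affymetrix arrays through biotin-labelled cRNA, per the labels' protocols. The values are the whole-number, linear intensities of 45101 probe sets that the authors deposited. How they were background-corrected, summarised and normalized was not given in the sources used here, although the Fl/Fl array means lie close together. The platform annotation gave 34958 probe sets 1 gene, 932 several and 9211 none, and 34754 matched the RefSeq gene table. The 34958 probe sets with 1 gene, matched or not, gave 18194 genes. Each gene was kept with its probe set of the highest mean over all arrays, and 4 was added before log2.

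The 10 Fl/Fl arrays were fitted with 1 mean per day in limma 3.58.1 (R 4.3.3), with moderated two-sided tests and Benjamini-Hochberg adjustment over all genes at 0.05. Arrays labelled null stayed out of this fit because they differ among themselves. They entered the choice of probe set, the genotype comparison (30 arrays in its main fit), and the alternative fit of all 30 arrays. On simulated data with 100 genes changed by log2 1 and 100 by log2 2, the day 4 against day 2 fit recovered 45% and 81%, and 17 unchanged genes were called. The changed genes were drawn from those with a mean log2 value above 6, so these rates do not cover genes near the floor. The members and gene lists were chosen with earlier results of these data known. The genes named are all streak factors, the 15 largest rises and 15 largest falls with separate groups, up to 6 members of each other list by adjusted p, members that did not pass in lists with few calls, and Jarid2, which makes 123 genes. Genes named beyond these are said to be so, or are lineage markers listed by level. Alternatives were other added constants, scalings, filters, probe sets, blocks and sets of arrays. The number of arrays limits the precision, and intensities carry no depth.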

Additional observations from a re-analysis of the deposited data

Results flagged for a closer look

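In 28 sets of 5 arrays labelled null (14 streak factors on days 4 and 2), 10 held an array far from the other 4. Chance gives about 1 in 20 for values on a continuous scale, which these whole numbers near the floor, mostly equal among the other 4 arrays, are not, so the 10 cannot be read against that rate. On day 4 this was Mixl1 at 27 (the others at 5 to 6), Gsc at 9 (the others at 6), Evx1 at 6 (the others at 5), Foxa2 at 5 (the others at 4) and Hes7 at 10 (the others at 9). On day 2 it was Gsc at 7 (the others at 6), Mesp2 at 10 (the others at 8), Sp5 at 7 (the others at 5), Snai1 at 11 (the others at 9) and Hes7 at 11 (the others at 9). All but the Mixl1 value lie within 3 intensity units of their set. The step between day 2 and day 4 was larger in Fl/Fl cells than in cells labelled null by limma's test of the difference for Mixl1 (log2 difference 7.41), Evx1 (4.05) and Sp5 (3.87).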

How the results depend on the processing

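For Fl/Fl day 4 against Fl/Fl day 2, the count of 2594 genes was 1568 with the second brightest probe set of each gene, 1507 with the 4 arrays of days 2 and 4 alone, and 1432 to 3112 when 1 array was left out, where the lone array is assumed to vary like the other groups. For the difference between the steps day 2 to 4 and day 0 to 2 in Fl/Fl, the count of 1143 was 727 with the second brightest probe set, 474 with all 30 arrays in the fit, and 843 to 2475 with 1 array left out. For the difference of the day 2 to 4 step between Fl/Fl and null, the count of 192 was 367 against arrays labelled null with Eif2s3y above 400, 61 against the others, and 132 to 269 with 1 array left out. The 43 genes switched on or off became 11 with thresholds of 30 and 300. With the replicate number as a block the counts were 2477, 1051 and 268, and 4 named genes lost their call (Smad7, Tubb3, Otx2 and Wnt3). Replicates of equal number on days 2 and 4 deviated together with a correlation of 0.237, and over the 10 pairs of days the range was -0.009 to 0.237, so the numbers were not taken to pair arrays. Of the day 4 against day 2 values of 161 named genes, leaving aside left-out arrays, 1464 kept direction and side of the threshold, 122 lost the call, 13 gained it and 1 turned: the second probe set of Psmb8 gave -0.13. The second probe set alone took 38 calls, and the 4 arrays alone 47. The cause of these shifts was not tested. Dim genes near the floor have the least certain folds.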
